A study of Mus musculus with 30 samples.

Results

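Inguinal white adipose tissue (iWAT), the subcutaneous fat pad of the mouse groin, was compared after 24 h of cold and at 22 °C. The comparison took all libraries that the labels put in these groups, with no choice by measured values: 5 iWAT libraries of mice kept for 24 h at 6 °C and 5 iWAT libraries of the 22 °C group, 10 of the 30 libraries in the series. All mice were male C57BL/6J, 7-8 weeks old, caged in groups of 5 with free food and water, and no label gives a genetic change or a drug in any group. The control group is labelled 22 °C, although the room temperature in the protocol is 24 ± 2 °C. A further 5 iWAT libraries of mice kept for 6 h at 6 °C shared the estimate of the spread between libraries. The response of brown adipose tissue (BAT), the dedicated heat-producing fat, was taken from 5 libraries after 24 h at 6 °C and 5 at 22 °C. Polyadenylated RNA was sequenced, and 13689 of the 21652 genes in the deposited table held enough counts to be tested. Nothing in the labels says that the libraries of a group came from separate mice, so p-values measure only the spread between these samples.

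Depth was similar in both groups, with 30.7 to 38.3 M assigned counts (M, 1e6) per library after 24 h and 27.7 to 39.8 M at 22 °C. Mitochondrially encoded genes took 12.4 to 14.96% of counts after 24 h and 9.83 to 14.8% at 22 °C. Fat cell mRNA was abundant, as the tissue label says: 12 adipocyte markers summed to 43274 to 55509 CPM (counts per 1e6 assigned counts, with scaled library sizes) after 24 h and to 41326 to 51013 CPM at 22 °C. At 22 °C, 2 libraries stood apart. Replicate 2 held 4557 CPM of 13 skeletal muscle markers, against 62.6 to 72.2 CPM in the other 22 °C libraries and 48.8 to 73.8 CPM after 24 h. Replicate 4 held more respiratory chain mRNA than the other 22 °C libraries, and results that rest on either library are given with and without it.

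White fat stores triglyceride, but the inguinal pad also holds fat cells that can turn to heat production in the cold, called beige or brite cells. Noradrenaline from sympathetic nerves acts on beta-adrenergic receptors of the fat cell, raises cyclic AMP, releases fatty acids from the lipid droplet and induces the uncoupling protein Ucp1. Ucp1 lets protons return into the mitochondrial matrix without making ATP, so that the respiratory chain turns fuel into heat. The stroma around the fat cells holds progenitors, fibroblasts, vessels, nerves and macrophages, whose mRNA is read in the same libraries. In whole tissue, fewer cells of a type and less RNA per cell cannot be told apart.

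After 24 h in the cold, 1757 genes rose (12.8% of those tested) and 1388 fell (10.1%), by edgeR's quasi-likelihood test at a Benjamini-Hochberg adjusted p under 0.05. The rises covered heat production, fuel uptake, the tricarboxylic acid cycle, the respiratory chain, mitochondrial import, protein turnover and a stress response. The falls included 9 of 30 matrix genes, 7 of 15 endothelial markers and 5 of 18 genes of vascular growth. Changes were mostly moderate: the median log2 fold change was 0.52 among the genes that rose and -0.61 among those that fell. At least a log2 of 1 was reached by 221 rises and 299 falls. The 5 libraries after 24 h lay above all 5 at 22 °C for 1361 genes (9.94%) and below all 5 for 902 genes (6.59%). Over all tested genes the median log2 fold change was -0.041. The split of the calls into 1757 rises and 1388 falls depends on the scaling: it was 1381 and 1891 with upper-quartile factors, where the median of all genes was -0.10, and 1035 and 3128 or 1017 and 2864 on the deposited FPKM (reads scaled by gene length and library total), where it was -0.12 or -0.19. Without 22 °C replicate 1 the count of called genes was 2053.

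**Figure D1:**
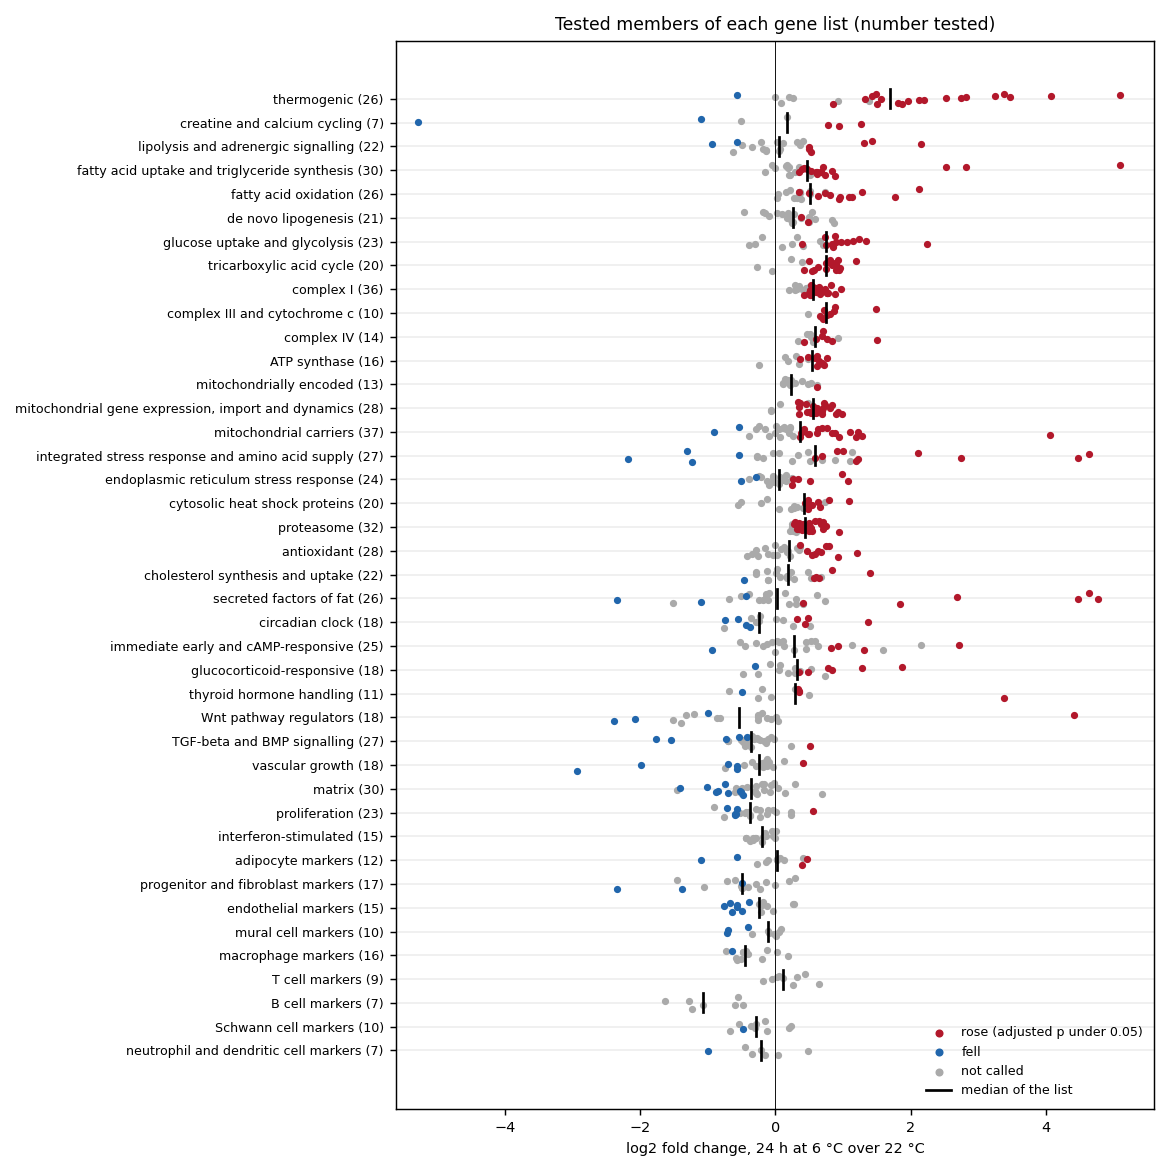
Log2 fold change (x axis, 24 h at 6 °C over 22 °C) of each tested member of the gene lists (rows, number tested in brackets), with calls in red and blue and list medians as black bars. The medians of the thermogenic list at 1.69, of the tricarboxylic acid cycle at 0.75 and of the glycolysis list at 0.74 lie right of 0, and those of the Wnt list at -0.54 and the matrix list at -0.36 lie left of it.

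Genes of heat production rose, from a control level that differed widely between libraries. Of 26 tested thermogenic genes 19 rose and 1 fell, and their median log2 fold change was 1.69 beside -0.041 over all genes. Ucp1 (ENSMUSG00000031710), the uncoupling protein, had 4162, 2616, 2736, 3583 and 4621 CPM after 24 h, against 34.3, 166, 783, 615 and 10.8 CPM at 22 °C. The groups did not overlap, although the 22 °C libraries spanned a far wider range than the cold ones, with replicates 1 and 5 lowest and replicates 3 and 4 highest (log2 fold change 3.46 ± 0.91, adjusted p = 0.013). Set against gene length, Ucp1 averaged 2118 ± 502 FPKM after 24 h and 209 ± 229 FPKM at 22 °C (SD, n = 5 each). The same 22 °C libraries were highest and lowest in pairs for Dio2 (ENSMUSG00000007682), whose enzyme makes active thyroid hormone inside the cell. It had 291, 223, 172, 264 and 265 CPM after 24 h, against 4.12, 9.11, 42.5, 60.04 and 1.66 CPM at 22 °C (log2 fold change 3.37 ± 0.78, adjusted p = 0.0068). Elovl3 (ENSMUSG00000038754), an elongase of very long fatty acids induced in cold fat, had 144, 81.7, 50.8, 81.6 and 172 CPM after 24 h, against 1.10, 2.51, 16.6, 10.9 and 0.365 CPM at 22 °C (log2 fold change 4.08 ± 0.88, adjusted p = 0.0047). Fabp3 (ENSMUSG00000028773), which binds fatty acids in the cytosol, had 516, 497, 432, 588 and 1070.1 CPM after 24 h, against 0.693, 8.29, 49.6, 32.5 and 0.390 CPM at 22 °C (log2 fold change 5.09 ± 1.11, adjusted p = 0.0049). In all of these genes every cold library exceeded every 22 °C library, and 22 °C replicates 3 and 4 were the highest controls.

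**Figure D2:**
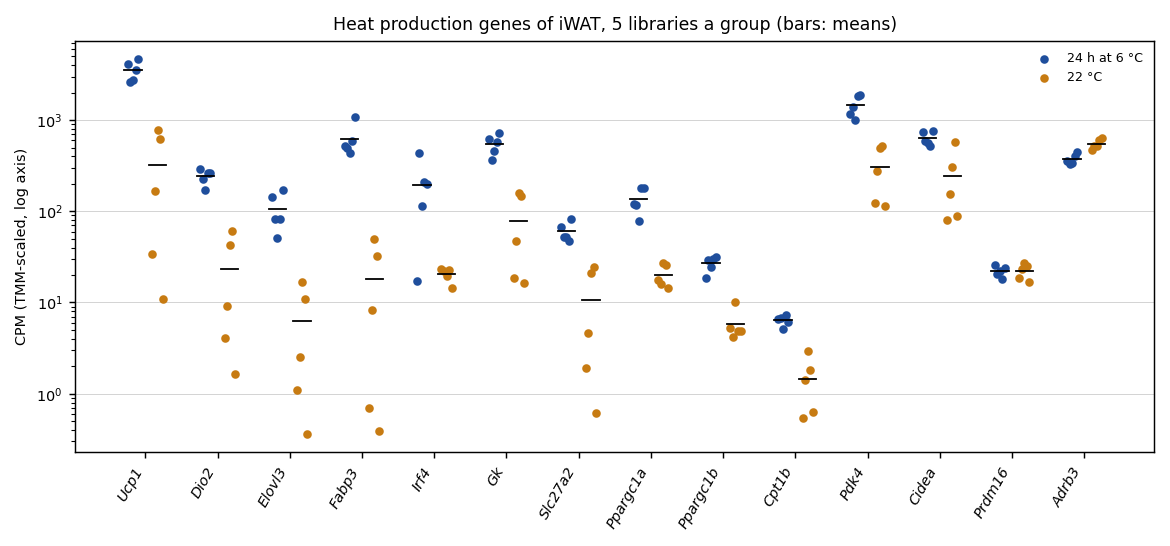
CPM (log axis) of heat production genes in each of the 5 libraries after 24 h at 6 °C (left of each pair) and the 5 at 22 °C (right), with bars at the means. The 22 °C libraries of Ucp1, Dio2, Elovl3, Fabp3, Gk and Slc27a2 spread over more than a factor of 5, while Ppargc1a and Ppargc1b separate the groups with less spread. Prdm16 overlaps and Adrb3 is lower after 24 h.

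The coactivators and nuclear receptors that drive mitochondrial genes rose as well, with a narrower control spread. Ppargc1a, the coactivator that links cyclic AMP to mitochondrial biogenesis, had 121, 118, 78.6, 179 and 180.0 CPM after 24 h, against 17.8, 16.0, 27.3, 25.5 and 14.5 CPM at 22 °C (log2 fold change 2.74 ± 0.43, adjusted p = 0.00078). Its relative Ppargc1b had 18.7, 29.2, 24.5, 30.2 and 31.7 CPM after 24 h, against 5.19, 4.21, 10.1, 4.90 and 4.82 CPM at 22 °C (log2 fold change 2.20 ± 0.26, adjusted p = 0.00031). Neither gene overlapped between the groups. The nuclear receptors that these coactivators bind were also higher: Esrra at 0.85 ± 0.15, Esrrg at 1.86 ± 0.44 and Ppara at 1.43 ± 0.42. The call of Ppara was lost without 22 °C replicate 1 or 5 (adjusted p = 0.0512 to 0.0595). Perm1, a regulator of oxidative metabolism downstream of these factors in muscle, had 31.9, 24.0, 22.2, 33.1 and 44.8 CPM after 24 h, against 0.828, 4.33, 4.46, 3.20 and 0.755 CPM at 22 °C (log2 fold change 3.54 ± 0.69, adjusted p = 0.0026). The transcription factor Irf4, a partner of Ppargc1a in brown fat, had 17.2, 434, 114, 208 and 201 CPM after 24 h, against 23.2, 22.3, 19.5, 22.9 and 14.4 CPM at 22 °C (log2 fold change 3.25 ± 0.55, adjusted p = 0.0013). Irf4 overlapped between the groups, since 24 h replicate 1 stayed at the control level while the other 4 cold libraries were far above it. Other members of the thermogenic list that rose were the potassium channel Kcnk3 (1.81 ± 0.36), the pantothenate kinase Pank1 of coenzyme A synthesis (1.95 ± 0.50), the lipid droplet protein Plin5 (1.48 ± 0.35) and Letmd1 (1.57 ± 0.31), needed for brown fat mitochondria in mice.

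Other thermogenic genes did not pass the test. Cidea, a lipid droplet protein of brown-type fat cells, had 736, 584, 557, 518 and 750.4 CPM after 24 h, against 79.7, 153, 308, 582 and 88.9 CPM at 22 °C (log2 fold change 1.38 ± 0.51, adjusted p = 0.063). Its groups overlapped, and 22 °C replicate 4 lay among the cold libraries. Without that library Cidea was called, at 2.02 (edgeR adjusted p = 0.00638). It was also called with DESeq2, on FPKM, with the replicate number as a block, and with 10 or all 30 libraries in the fit, at 1.37 to 1.68. Prdm16, a determinant of the brown and beige fate, had 18.2 to 25.5 CPM after 24 h, against 16.9 to 26.9 CPM at 22 °C (log2 fold change -0.0061 ± 0.18, adjusted p = 0.99). The fold change of Prdm16 stayed near 0, and changed sign, with other scalings. The single member that fell was Adrb3, the main beta-adrenergic receptor of mouse fat cells, with 354, 327, 335, 409 and 444 CPM after 24 h, against 473, 526, 525, 603 and 631 CPM at 22 °C (log2 fold change -0.56 ± 0.11, adjusted p = 0.003). All 5 cold libraries lay below all 5 at 22 °C. A stromal covariate, the mean of the progenitor and fibroblast, endothelial and macrophage markers, was chosen after seeing the data. With it 3 thermogenic genes rose and none fell, and the list's median was 1.33.

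Downstream of the receptor the pathway moved unevenly. Of 22 tested genes of lipolysis and adrenergic signalling 6 rose and 2 fell, with a median of 0.057 that turned negative on FPKM (-0.091 and -0.090) and with upper-quartile factors (-0.0040). Adcy3, the adenylyl cyclase of fat that makes cyclic AMP, had 159.9, 73.0, 119, 106 and 137 CPM after 24 h, against 16.3, 26.1, 46.5, 27.2 and 17.9 CPM at 22 °C (log2 fold change 2.15 ± 0.41, adjusted p = 0.0024). All 5 cold libraries of Adcy3 lay above all 5 at 22 °C. Of the phosphodiesterases that remove cyclic AMP, Pde4d rose with 24.2, 41.3, 32.5, 40.2 and 38.3 CPM after 24 h, against 11.6, 15.1, 18.3, 13.5 and 12.9 CPM at 22 °C (log2 fold change 1.31 ± 0.25, adjusted p = 0.0026), without overlap. Pde4b fell with 3.37 to 7.15 CPM after 24 h, against 7.39 to 13.2 CPM at 22 °C (log2 fold change -0.94 ± 0.21, adjusted p = 0.0058), without overlap. The lipases themselves were not called: Pnpla2, the first triglyceride lipase, had a log2 fold change of 0.41 ± 0.15 (adjusted p = 0.054) and Lipe, hormone-sensitive lipase, had 0.06 ± 0.093 (adjusted p = 0.67). Pnpla2 was called without 22 °C replicate 4 (0.47) or 24 h replicate 4 (0.47), and with DESeq2 (0.42). Of 25 immediate early and cyclic AMP-responsive genes 4 rose and 1 fell (median 0.28). The nuclear receptor Nr4a3 had 8.64, 17.4, 16.1, 30.03 and 17.6 CPM after 24 h, against 0.962, 2.17, 2.90, 7.43 and 0.511 CPM at 22 °C (log2 fold change 2.71 ± 0.56, adjusted p = 0.0038), without overlap. Its relative Nr4a1 had 0.12 ± 0.60 (adjusted p = 0.91).

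A palindrome read by cyclic AMP-responsive factors, the cyclic AMP response element TGACGTCA, lies upstream of some of these genes. Promoter windows from 250 bases before to 50 bases after the start site came from RefSeq (GRCm38.p6) and matched 10843 of the tested genes. The element was present in 4.56% of 1426 windows of genes that rose, 1.91% of 1100 windows of genes that fell, 3.40% of tested genes and 2.03% of all 27025 genes with a window. Of 19 list genes that hold it 10 rose, 1 fell and 8 were not called. Those that rose included Dio2, cytochrome c (Cycs), Ogdh and Mdh2 of the tricarboxylic acid cycle, Ndufa11 of complex I and Uqcrfs1 of complex III. Elovl5 and Ldha were among those not called. The stretches of Dio2 and Cycs are shown because they carry the element near the start of the genes that rose most among these, with the element in capitals, 5′ to 3′ on the strand of the gene. The Dio2 stretch is chr12:90739065-90739194 (strand -), with the element starting 95 bases before the start site. The Cycs stretch is chr6:50566670-50566799 (strand -), with the element 169 bases before it.
Dio2: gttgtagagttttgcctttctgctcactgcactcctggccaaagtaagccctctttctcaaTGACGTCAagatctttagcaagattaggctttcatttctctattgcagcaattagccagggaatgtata
Cycs: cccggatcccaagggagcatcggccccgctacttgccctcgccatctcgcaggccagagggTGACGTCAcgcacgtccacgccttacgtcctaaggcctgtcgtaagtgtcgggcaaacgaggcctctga
A further 5 motifs were searched on both strands in the same windows. The core TGACG, which the full element contains, was in 42.3% of windows of genes that rose and 26.5% of those that fell (33.8% of tested genes, 23.0% of all). The estrogen-related receptor element TCAAGGTCA was in 0.631%, 0.182%, 0.304% and 0.466% of the same sets, the antioxidant element TGACNNNGC in 20.1%, 16.8%, 16.8% and 14%, and the D-box TTANNTAA in 4.84%, 4.09%, 4.53% and 6.93%. The sixth, an amino acid response element, is given with the stress genes. A match in a window is a description of its letters.

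Genes for taking up, activating and re-esterifying fatty acids rose in 17 of 30 cases, or 11 on FPKM, and none fell (median 0.46). Gk, the glycerol kinase that recycles glycerol into triglyceride, had 617, 364, 458, 573 and 722 CPM after 24 h, against 18.7, 47.4, 159, 149 and 16.6 CPM at 22 °C (log2 fold change 2.81 ± 0.65, adjusted p = 0.0069). The groups did not overlap, and 22 °C replicates 3 and 4 were again the highest controls. Acsl1, the acyl-CoA synthetase of fat cells, had 6142, 4682, 6842, 5266 and 4895 CPM after 24 h, against 3146, 3550.1, 4252, 3942 and 3255 CPM at 22 °C (log2 fold change 0.62 ± 0.16, adjusted p = 0.012), one of the largest gains in CPM. The acyltransferases Agpat2 (0.83 ± 0.19), Dgat1 (0.71 ± 0.12) and Gpam (0.68 ± 0.18) and the phosphatidate phosphatase Lpin1 (0.73 ± 0.13) of triglyceride synthesis were higher as well. Lipoprotein lipase, Lpl, which frees fatty acids from blood lipoproteins, had 14739, 16437, 15580.1, 15679 and 16579 CPM after 24 h, against 11148, 10199, 11983, 12964 and 13975 CPM at 22 °C (log2 fold change 0.39 ± 0.12, adjusted p = 0.032). Its groups did not overlap. Its call was lost without 24 h replicate 2, 3, 4 or 5 or 22 °C replicate 1, 2 or 3 (adjusted p = 0.0501 to 0.0862) and also on log2(FPKM + 0.1), on log2(FPKM + 1), with no filter or with upper-quartile factors. The transporter Slc27a2 had 47.6 to 83.0 CPM after 24 h, against 0.609 to 24.5 CPM at 22 °C (log2 fold change 2.52 ± 0.80, adjusted p = 0.032). The call did not survive without 24 h replicate 1 or 5 or 22 °C replicate 1 or 2 (adjusted p = 0.0569 to 0.0752).

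Of 26 genes of fatty acid oxidation 12 rose, or 19 with DESeq2, and none fell (median 0.50). Cpt1b, the muscle and brown-fat form of the enzyme that commits fatty acids to oxidation, had 6.54, 6.74, 5.16, 7.27 and 6.11 CPM after 24 h, against 0.537, 1.41, 2.92, 1.80 and 0.633 CPM at 22 °C (log2 fold change 2.13 ± 0.52, adjusted p = 0.0088), without overlap. Its liver form Cpt1a, also present in white fat, had 37.3 to 68.9 CPM after 24 h, against 34.8 to 59.9 CPM at 22 °C and was not called (log2 fold change 0.041 ± 0.17, adjusted p = 0.89). Slc25a20, which carries acylcarnitine through the inner membrane, stood at 1.28 ± 0.27, the dehydrogenase Etfdh, which passes electrons on to coenzyme Q, at 1.13 ± 0.25 and the trifunctional protein subunit Hadha at 0.96 ± 0.26. Acot2, a mitochondrial thioesterase, had 76.6, 49.4, 62.2, 79.3 and 120.1 CPM after 24 h, against 17.6, 20.3, 27.5, 26.1 and 22.8 CPM at 22 °C (log2 fold change 1.76 ± 0.25, adjusted p = 0.00052), without overlap. The count of 12 depended on single libraries: it was 7 without 22 °C replicate 1 or 5 or without 24 h replicate 1, and 24 without 22 °C replicate 4.

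Of 23 genes of glucose uptake, glycolysis and pyruvate entry 14 rose and none fell (median 0.74), and on FPKM 12 or 13 rose and 1 fell. Pdk4, the kinase that restrains pyruvate oxidation, had 1169, 1400.3, 1005, 1859 and 1860.2 CPM after 24 h, against 123, 277, 499, 526 and 114 CPM at 22 °C (log2 fold change 2.24 ± 0.51, adjusted p = 0.0059), without overlap. Ldhb, the lactate dehydrogenase subunit typical of oxidative tissue, had 261, 221, 221, 192 and 269 CPM after 24 h, against 63.5, 69.2, 96.7, 166 and 67.1 CPM at 22 °C (log2 fold change 1.33 ± 0.27, adjusted p = 0.0035), also without overlap. The other subunit Ldha stood at 0.24 ± 0.16 (adjusted p = 0.27). The mitochondrial pyruvate carrier subunits Mpc1 (0.84 ± 0.22) and Mpc2 (1.05 ± 0.22) and the glycolytic enzymes Pgk1 (1.23 ± 0.22), Pgam1 (1.15 ± 0.17), Gapdh (0.97 ± 0.25) and Aldoa (0.85 ± 0.20) were higher. Hexokinase Hk2 (0.41 ± 0.16, adjusted p = 0.071) and the glucose transporter Slc2a1 (0.31 ± 0.21, adjusted p = 0.29) were not called. De novo lipogenesis was mostly uncalled, with 2 of 21 genes rising, 4 without 24 h replicate 3, and none falling. Under upper-quartile scaling there were 1 rise and 2 falls, and on FPKM no rise and 2 falls. Fatty acid synthase, Fasn, had 5699.7, 9899.7, 3361, 7711 and 3966 CPM after 24 h, against 5059, 3502, 5538, 5077 and 6032 CPM at 22 °C (log2 fold change 0.28 ± 0.28, adjusted p = 0.49). The cold libraries were spread on both sides of the controls, with replicates 2 and 4 high and replicates 3 and 5 low, and Acly (0.53 ± 0.43, adjusted p = 0.39) showed the same order of cold libraries. Of 22 genes of cholesterol synthesis and uptake 5 rose and 1 fell (median 0.18), and on FPKM 3 rose and 3 fell. The rises numbered 3 when any 1 of 24 h replicates 1, 2 and 4 or of 22 °C replicates 1, 2, 3 and 5 was left out, and there was no fall when 24 h replicate 4 or 5 was. Hsd17b7, which acts on the sterol ring in cholesterol synthesis, had 16.1 to 25.5 CPM after 24 h, against 6.59 to 10.9 CPM at 22 °C (log2 fold change 1.39 ± 0.19, adjusted p = 0.00046), without overlap. Hmgcs1, the synthase ahead of the rate-limiting step, stood at 0.58 ± 0.12.

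Of 20 genes of the tricarboxylic acid cycle 16 rose and none fell (median 0.75). Idh3a, the catalytic subunit of the cycle's NAD-linked isocitrate dehydrogenase, had 1388, 1212, 1151, 1210.1 and 1364 CPM after 24 h, against 399, 526, 630.1, 759 and 455 CPM at 22 °C (log2 fold change 1.19 ± 0.19, adjusted p = 0.00093). Every cold library exceeded every control, of which replicate 4 was the highest. Sucla2 (0.94 ± 0.26), Suclg1 (0.89 ± 0.22), citrate synthase Cs (0.84 ± 0.15) and Ogdh (0.75 ± 0.19) were among the others that rose. The NADP-linked Idh2 was not called and had a negative fold change (-0.27 ± 0.10, adjusted p = 0.075). It was called as lower without 24 h replicate 5 (-0.33) and on FPKM (-0.42 and -0.41).

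Nuclear-encoded subunits of every respiratory complex listed rose, and none fell in any. In complex I 23 of 36 rose (median 0.56), in complex III with cytochrome c 8 of 10 (0.74), in complex IV 7 of 14, or 11 with DESeq2, (0.58) and in ATP synthase 10 of 16 (0.54). On FPKM complex I had 19 rises, and ATP synthase had 8 rises and 1 fall. Summed over complex I the level was 6217, 6444, 4988, 5276 and 5857 CPM after 24 h, against 3351, 3334, 3587, 5929 and 3231 CPM at 22 °C. Control replicate 4 lay within the range of the cold libraries, and the other 4 controls lay below all of them. Cycs, the electron carrier between complexes III and IV, had 1447, 1317, 1087, 1177 and 1287 CPM after 24 h, against 329, 392, 465, 773 and 294 CPM at 22 °C (log2 fold change 1.49 ± 0.25, adjusted p = 0.0012), and its groups did not overlap. Ndufa11, with the largest rise in complex I, had 30.7 to 48.7 CPM after 24 h, against 15.3 to 30.3 CPM at 22 °C (log2 fold change 0.96 ± 0.19, adjusted p = 0.0027), also without overlap. Atp5f1b, the catalytic subunit of ATP synthase, had 2449 to 2912 CPM after 24 h, against 1459 to 2288 CPM at 22 °C (log2 fold change 0.64 ± 0.15, adjusted p = 0.007). The counts moved with the library left out: with 22 °C replicate 4 left out complex I had 35 rises. It had 11 to 15 when 24 h replicate 1, 2 or 5 or any other 22 °C library was left out. Complex IV had 11 to 13 rises when 24 h replicate 3 or 22 °C replicate 4 was left out, and 1 to 3 when any of the 7 libraries just named was. ATP synthase had 4 or 5 when any of these 7 was left out. With the muscle markers as a covariate they were 11, 1 and 4, and the medians stayed positive, at 0.53, 0.54 and 0.50. Mitochondrially encoded subunits had a median of 0.23, and 1 of 13 rose, mt-Nd1 (log2 fold change 0.61 ± 0.19, adjusted p = 0.026), whose call was lost without 24 h replicate 1, 2 or 4 or 22 °C replicate 1, 2, 3 or 5 (adjusted p = 0.0504 to 0.0673) and also on log2(FPKM + 0.1) or on log2(FPKM + 1). Without 22 °C replicate 4, 4 of the 13 rose.

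Of 28 genes of mitochondrial gene expression, import and dynamics 24 rose and none fell (median 0.56). The matrix chaperone Hspa9, which pulls proteins in, had 1232 to 1352 CPM after 24 h, against 548 to 886 CPM at 22 °C (log2 fold change 0.99 ± 0.19, adjusted p = 0.0023), without overlap. The import channels Tomm40 (0.93 ± 0.13) and Timm23 (0.89 ± 0.13), the prohibitins Phb1 (0.84 ± 0.14) and Phb2 (0.68 ± 0.16), the mitochondrial RNA polymerase Polrmt (0.69 ± 0.093) and the genome-packing factor Tfam (0.55 ± 0.10) were higher. The transcription factor Nrf1 was not called (-0.07 ± 0.10, adjusted p = 0.64). With the stromal covariate 2 of the 28 rose, and the median was 0.43.

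Of 37 mitochondrial carriers 19 rose and 2 fell, or 4 on FPKM (median 0.36). The largest rise was that of Slc25a34, a carrier of the inner membrane, with 31.4, 11.2, 20.0, 20.8 and 37.0 CPM after 24 h, against 0.425, 0.879, 2.78, 2.43 and 0.755 CPM at 22 °C (log2 fold change 4.06 ± 0.59, adjusted p = 0.00058), without overlap. Slc25a42, which brings coenzyme A into mitochondria, stood at 1.22 ± 0.27, the NAD carrier Slc25a51 at 1.10 ± 0.20, the glutathione carrier Slc25a39 at 0.87 ± 0.18 and the ADP/ATP exchanger Slc25a5 at 0.76 ± 0.14. Slc25a12, the aspartate-glutamate carrier of muscle and brain, fell with 3.98, 4.38, 4.73, 4.99 and 4.14 CPM after 24 h, against 6.91, 17.9, 5.24, 5.66 and 6.19 CPM at 22 °C (log2 fold change -0.91 ± 0.27, adjusted p = 0.026). Its highest control value was that of the muscle-rich 22 °C replicate 2, the groups did not overlap. The call did not hold without 24 h replicate 1, 2 or 5 (adjusted p = 0.0518 to 0.0579) and also with all 30 libraries in the fit. Slc25a24, an ATP-magnesium carrier, was the other that fell (-0.55 ± 0.15). Its call was lost without 24 h replicate 1 or 2 or 22 °C replicate 1 (adjusted p = 0.0532 to 0.0546).

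Among the largest rises were genes outside heat production and fuel use. Sgk2 (ENSMUSG00000017868), a kinase related to the glucocorticoid-induced Sgk1, had 17.8, 11.0, 11.3, 17.6 and 20.9 CPM after 24 h, against 0, 0, 0.219, 0.566 and 0 CPM at 22 °C (log2 fold change 6.76 ± 1.09, adjusted p = 0.00099). It held no counts in 3 controls and was present in every cold library. Kng2, a kininogen, had 11.1, 9.63, 10.2, 14.5 and 24.6 CPM after 24 h, against 0.604, 0.471, 0.560, 0.433 and 0.463 CPM at 22 °C (log2 fold change 4.77 ± 0.84, adjusted p = 0.0016), with 24 h replicate 5 the highest. Cend1, known from neuronal differentiation, had 7.32, 4.02, 5.64, 6.51 and 8.05 CPM after 24 h, against 0, 0.283, 0.341, 0.433 and 0.0974 CPM at 22 °C (log2 fold change 4.82 ± 0.65, adjusted p = 0.00047). Lgr6, a receptor for R-spondins of the Wnt pathway, had 8.50, 4.70, 4.43, 7.72 and 13.02 CPM after 24 h, against 0.0447, 0.283, 1.17, 0.133 and 0.122 CPM at 22 °C (log2 fold change 4.41 ± 1.12, adjusted p = 0.011). Hpdl, a mitochondrial enzyme of coenzyme Q synthesis, had 17.3, 10.3, 9.64, 11.3 and 18.9 CPM after 24 h, against 0.761, 0.911, 1.73, 1.53 and 1.14 CPM at 22 °C (log2 fold change 3.47 ± 0.45, adjusted p = 0.00046). None of these 5 genes overlapped between the groups. Dhrs9, a dehydrogenase of retinoids and steroids, had 9.63 to 27.1 CPM after 24 h, against 0.0731 to 6.82 CPM at 22 °C (log2 fold change 3.04 ± 0.89, adjusted p = 0.023). The call ended without 22 °C replicate 1 or 2 (adjusted p = 0.0526 to 0.0597).

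The rises with the lowest p-values were moderate and tight. Slc31a1, the copper importer of the cell surface, had 81.8, 66.6, 81.8, 75.2 and 79.5 CPM after 24 h, against 43.1, 42.0, 42.9, 41.0 and 42.6 CPM at 22 °C (log2 fold change 0.86 ± 0.10, adjusted p = 0.00031). Pdss1, which starts the side chain of coenzyme Q, had 18.5, 15.5, 15.04, 16.5 and 17.1 CPM after 24 h, against 5.10, 5.62, 6.604, 7.66 and 5.09 CPM at 22 °C (log2 fold change 1.46 ± 0.17, adjusted p = 0.00031). Gars1, the glycyl-tRNA synthetase, had 234, 212, 203, 196 and 219 CPM after 24 h, against 97.3, 103, 117, 129 and 102 CPM at 22 °C (log2 fold change 0.95 ± 0.11, adjusted p = 0.00031). The 22 °C libraries of Slc31a1 lay within a few CPM of each other and none of these 3 genes overlapped. Farsb, a subunit of phenylalanyl-tRNA synthetase (0.70 ± 0.08), the adaptor protein Shb (1.41 ± 0.17), the lipid carrier Stard5 (1.05 ± 0.12) and the cell cycle inhibitor Cdkn1a (1.87 ± 0.20) completed the genes of lowest p with Ppargc1b. Since 2 of them charge tRNAs, 20 cytosolic aminoacyl-tRNA synthetases were listed after these values had been seen: 13 rose, or 8 on FPKM, and none fell, with a median of 0.34 and a range of 0.038 to 0.95. Gars1, Farsb, Pdss1, Shb, Slc31a1, Stard5, Cdkn1a and Ppargc1b were also called with the stromal covariate, at log2 fold changes of 0.81, 0.65, 1.27, 1.29, 0.80, 1.02, 1.68 and 2.01.

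A stress response that follows trouble in mitochondria or amino acid supply rose in part. Of 27 genes 10 rose and 4 fell (median 0.58), and the falls numbered 2 without 22 °C replicate 1 or without 24 h replicate 1 or 2. Fgf21 (ENSMUSG00000030827), a hormone secreted by stressed liver and fat, had 3.41, 0.598, 0.641, 6.11 and 10.2 CPM after 24 h, against 0.179, 0.283, 0.366, 0.0666 and 0.0244 CPM at 22 °C (log2 fold change 4.48 ± 0.98, adjusted p = 0.0051). Gdf15 (ENSMUSG00000038508), a second stress hormone, had 1.92, 1.36, 0.427, 4.13 and 7.61 CPM after 24 h, against 0.112, 0.251, 0.0731, 0.166 and 0.0244 CPM at 22 °C (log2 fold change 4.64 ± 0.85, adjusted p = 0.0019). Both genes were near 0 at 22 °C and highest in 24 h replicates 4 and 5, and neither overlapped. Mthfd2, the folate enzyme of growing mitochondria, had 12.3, 10.4, 11.9, 16.5 and 22.3 CPM after 24 h, against 3.42, 2.86, 4.00, 2.93 and 3.80 CPM at 22 °C (log2 fold change 2.11 ± 0.26, adjusted p = 0.00039), without overlap. The transcription factor Atf5 (1.22 ± 0.17), Sesn2 (1.00 ± 0.15), the amino acid transporter subunit Slc3a2 (0.91 ± 0.16) and asparagine synthetase Asns (0.69 ± 0.14) were higher. The members that fell act in proline, serine and folate metabolism or are secreted: Pycr1 (log2 fold change -1.23 ± 0.39, adjusted p = 0.032), the first enzyme of serine synthesis, Phgdh (-0.54 ± 0.18), the mitochondrial folate enzyme Aldh1l2 with 0.337, 0.163, 0.321, 0.188 and 0.191 CPM after 24 h, against 1.90, 1.10, 1.29, 0.400 and 0.731 CPM at 22 °C (log2 fold change -2.17 ± 0.50, adjusted p = 0.0064) and the glycoprotein hormone Stc2 (-1.31 ± 0.26). The call of Pycr1 was lost without 24 h replicate 1 or 2 or 22 °C replicate 1 or 2 (adjusted p = 0.0593 to 0.0934) and also with all 30 libraries in the fit or with the replicate number as a block, and that of Phgdh without 24 h replicate 1, 2, 3 or 4 or 22 °C replicate 1 or 5 (adjusted p = 0.0718 to 0.111) and also with all 30 libraries in the fit or with no filter. Atf4, the central factor, had 0.51 ± 0.18 (adjusted p = 0.054) and Ddit3 had 0.48 ± 0.17 (adjusted p = 0.053). Both were called without 22 °C replicate 4 or 24 h replicate 3 (Atf4 at 0.68 and 0.61, Ddit3 at 0.60 and 0.55) and with DESeq2, and Ddit3 also without 24 h replicate 2 (0.57).

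The amino acid response element TTGCATCA, read by Atf4 with its partners, was found in the promoter windows of 6 of 24 matched genes of this list (Atf3, Chac1, Fgf21, Nupr1, Pycr1 and Slc7a11), against 0.729% of tested genes and 1.03% of all genes with a window. It was in 1.19% of windows of genes that rose and 0.636% of those that fell. Of the carriers in this list, Atf3 (log2 fold change 1.13), Chac1 (0.88) and Nupr1 (-0.28) were not called. The stretches of Fgf21, Slc7a11 and Pycr1 are shown because these genes carry the same element and were called, but did not move the same way. Fgf21 and the cystine transporter Slc7a11 (log2 fold change 2.75 ± 0.73, adjusted p = 0.014) rose and Pycr1, the last enzyme of proline synthesis, fell. Slc7a11 was not called on log2(FPKM + 0.1) or log2(FPKM + 1). The element is in capitals, 5′ to 3′ on the strand of the gene, with TGATGCAA its reverse complement. The windows lie at chr7:45615561-45615690, chr3:50443614-50443743 and chr11:120643783-120643912 (all strand -) in that order, with the element nearest to the start site 139, 47 and 103 bases before it.
Fgf21: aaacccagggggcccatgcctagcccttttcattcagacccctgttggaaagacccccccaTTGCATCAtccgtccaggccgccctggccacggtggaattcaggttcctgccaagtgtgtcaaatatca
Slc7a11: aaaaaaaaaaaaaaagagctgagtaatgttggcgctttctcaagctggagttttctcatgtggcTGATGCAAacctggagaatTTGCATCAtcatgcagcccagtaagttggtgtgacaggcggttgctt
Pycr1: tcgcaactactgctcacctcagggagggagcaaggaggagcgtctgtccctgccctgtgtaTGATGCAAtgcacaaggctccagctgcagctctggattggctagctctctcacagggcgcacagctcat
Slc7a11 holds the element 2 times, once in each direction.

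Genes of protein folding and turnover rose in part. Of 32 proteasome genes 27 rose and none fell (median 0.43), and 17 rose without 22 °C replicate 2 or with the muscle covariate and 16 or 17 on FPKM. The catalytic subunit Psmb5 had 149, 147, 98.6, 117 and 128 CPM after 24 h, against 63.4, 54.8, 55.7, 95.6 and 62.7 CPM at 22 °C (log2 fold change 0.94 ± 0.17, adjusted p = 0.0019), without overlap. The ATPase subunit Psmc4 (0.71 ± 0.12) and the subunit Psmb7 (0.74 ± 0.11) followed. Nfe2l1, the transcription factor that raises proteasome genes in brown fat, had 0.26 ± 0.14 (adjusted p = 0.18). Of 20 cytosolic heat shock proteins 9 rose and none fell (median 0.42). The constitutive chaperone Hspa8 had 1671, 1353, 1178, 1264 and 1588 CPM after 24 h, against 454, 589, 767, 914 and 608 CPM at 22 °C (log2 fold change 1.08 ± 0.20, adjusted p = 0.0018), without overlap. Of 24 genes of the endoplasmic reticulum stress response 6 rose and 2 fell. The falls numbered 1 without 24 h replicate 2, 4 or 5 or 22 °C replicate 1, 2 or 3, and 4 on FPKM. The list had a median of 0.054 that was negative on FPKM and with upper-quartile factors. The co-chaperone Dnajb9 (1.08 ± 0.18) and the secreted Manf (0.98 ± 0.17) rose and the transcription factor Xbp1 (-0.50 ± 0.13) fell. Of 28 antioxidant genes 10 rose and none fell (median 0.19), and on FPKM 9 rose and 1 or 3 fell. The sulfiredoxin Srxn1 led with 53.7 to 80.9 CPM after 24 h, against 27.0 to 30.3 CPM at 22 °C (log2 fold change 1.21 ± 0.19, adjusted p = 0.00078), without overlap. Mitochondrial members that rose were Sod2 (0.79 ± 0.18), Txn2 (0.74 ± 0.16) and Prdx3 (0.63 ± 0.14).

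The lists of clock, hormone and secreted-factor genes held calls in both directions, beside 12.8% of all tested genes that rose and 10.1% that fell. The labels used here give no hour of sampling. Of 18 clock genes 4 rose and 4 fell, and 1 or 2 fell without 24 h replicate 2, 4 or 5 or 22 °C replicate 1, 2, 3 or 5. Without 22 °C replicate 4, 6 fell. The falls also numbered 7 under upper-quartile scaling, beside 3 rises, and on FPKM, beside 2 rises. Bmal1, which with Clock drives the loop, had 2.60, 2.47, 2.14, 1.66 and 1.88 CPM after 24 h, against 0.738, 0.628, 0.999, 0.599 and 1.17 CPM at 22 °C (log2 fold change 1.37 ± 0.31, adjusted p = 0.0065), without overlap. Its target Dbp had 94.9, 61.3, 61.3, 71.5 and 61.1 CPM after 24 h, against 106, 100.1, 106, 94.4 and 107 CPM at 22 °C (log2 fold change -0.55 ± 0.13, adjusted p = 0.0066), and the groups overlapped through 24 h replicate 1 alone. Of 18 glucocorticoid-responsive genes 6 rose and 1 fell (median 0.32). Among them were Zbtb16 with 45.8 to 144 CPM after 24 h, against 26.0 to 52.6 CPM at 22 °C (log2 fold change 1.28 ± 0.31, adjusted p = 0.0086) and Fkbp5 (0.84 ± 0.19), with overlap in each. The faller was the receptor Nr3c1 (-0.30 ± 0.10), whose call was lost without 24 h replicate 1, 4 or 5 or 22 °C replicate 1, 3, 4 or 5 (adjusted p = 0.0549 to 0.0754) and also with no filter. Of 11 genes of thyroid hormone handling 4 rose and 1 fell (median 0.28), and on FPKM 1 rose and 2 fell. Dio2 rose, as above, and so did the receptor Thrb, while the receptor Thra fell (log2 fold change -0.49 ± 0.13, adjusted p = 0.015).

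Of 26 secreted factors 6 rose and 3 fell, or 1 without 24 h replicate 1, 2 or 4 or 22 °C replicate 1 or 5. Besides Fgf21, Gdf15 and Kng2, Fndc5, the precursor of irisin, had 5.67, 7.64, 4.54, 3.86 and 4.11 CPM after 24 h, against 1.25, 2.70, 0.877, 1.43 and 0.950 CPM at 22 °C (log2 fold change 1.85 ± 0.34, adjusted p = 0.002), without overlap. Leptin, Lep, the hormone of fat stores, had 249, 177, 169, 209.9 and 455 CPM after 24 h, against 561, 499, 540.4, 305 and 796 CPM at 22 °C (log2 fold change -1.10 ± 0.34, adjusted p = 0.029). The call did not survive without 24 h replicate 1, 2, 3 or 4 or 22 °C replicate 1 or 5 (adjusted p = 0.0567 to 0.0738). Adiponectin, Adipoq, had 2179 to 3024 CPM after 24 h, against 2478 to 3017 CPM at 22 °C and was not called (log2 fold change -0.14 ± 0.18, adjusted p = 0.61). Vegfa, the vascular growth factor, had 538 to 611 CPM after 24 h, against 407 to 458 CPM at 22 °C (log2 fold change 0.41 ± 0.11, adjusted p = 0.012), without overlap. It was not called on log2(FPKM + 0.1) or log2(FPKM + 1). The alarmin Il33, made by stromal cells, had 1.35, 0.843, 2.54, 2.39 and 3.09 CPM after 24 h, against 12.1, 10.9, 6.68, 16.9 and 5.31 CPM at 22 °C (log2 fold change -2.34 ± 0.41, adjusted p = 0.0015), without overlap. Of the RNA-binding genes known to respond to cooling, Rbm3 had 188 to 225 CPM after 24 h, against 120.2 to 153 CPM at 22 °C (log2 fold change 0.65 ± 0.088, adjusted p = 0.00046), while Cirbp had 33.7, 42.5, 52.0, 42.3 and 40.5 CPM after 24 h, against 50.5, 41.1, 31.6, 37.8 and 49.2 CPM at 22 °C (log2 fold change 0.0052 ± 0.15, adjusted p = 0.99). Rbm3 did not overlap between the groups and Cirbp did.

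The fall with the lowest p-value, and the lowest p of all tested genes, was that of Cd200 (ENSMUSG00000022661), a surface glycoprotein that restrains myeloid cells, with 20.5, 20.3, 15.5, 19.8 and 19.5 CPM after 24 h, against 44.3, 52.0, 46.7, 38.9 and 49.6 CPM at 22 °C (log2 fold change -1.28 ± 0.10, adjusted p = 1.5e-05). The groups were tight and far apart. The apelin receptor Aplnr (ENSMUSG00000044338), found on vessels, had 8.70, 7.59, 6.73, 4.61 and 7.54 CPM after 24 h, against 28.7, 32.3, 26.3, 16.8 and 35.4 CPM at 22 °C (log2 fold change -1.99 ± 0.20, adjusted p = 0.00015). Inhbb, the activin B subunit of fat cells, had 17.03, 10.8, 10.4, 13.3 and 14.7 CPM after 24 h, against 49.3, 33.7, 44.1, 22.6 and 42.5 CPM at 22 °C (log2 fold change -1.54 ± 0.20, adjusted p = 0.00046). Neither overlapped. The homeobox factor Meox2, expressed in vessels, had 14.98, 14.4, 13.5, 14.3 and 13.3 CPM after 24 h, against 25.2, 30.1, 35.1, 29.6 and 31.7 CPM at 22 °C (log2 fold change -1.11 ± 0.13, adjusted p = 0.00031), without overlap. Other falls of low p were those of the water channel Aqp1 (-1.24 ± 0.16), of Samd5 (-1.69 ± 0.21), of Cmtm6, known for stabilising the checkpoint ligand of T cells (-0.73 ± 0.094), and of Epm2a, the laforin phosphatase of glycogen (-0.73 ± 0.094).

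**Figure D3:**
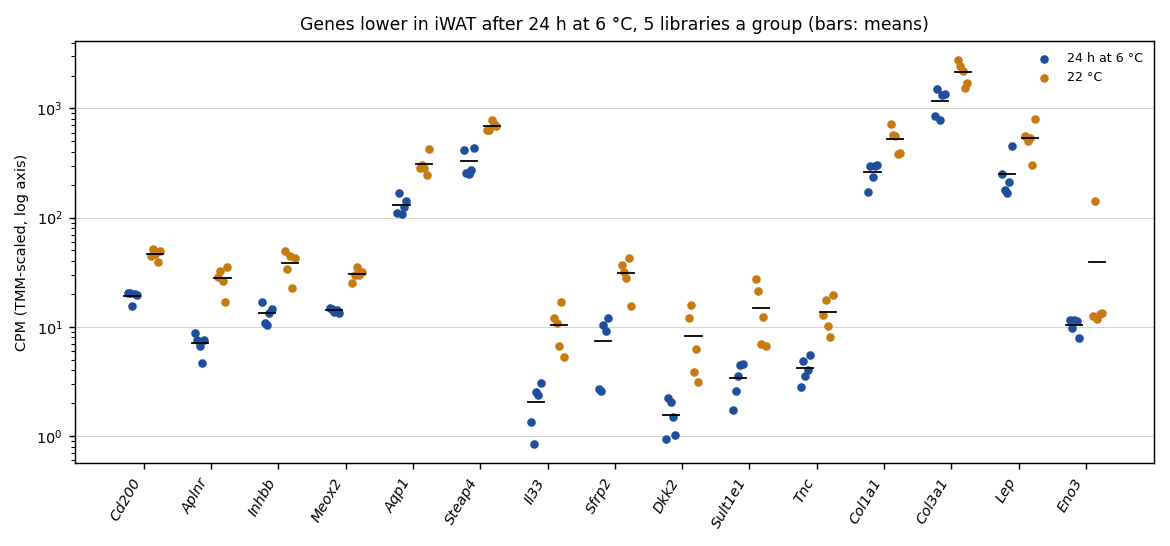
CPM (log axis) of genes lower in iWAT after 24 h at 6 °C (left of each pair) than at 22 °C (right), 5 libraries each, with bars at the means. Cd200 and Meox2 form tight, separate groups, and Aplnr and Inhbb separate with a wider spread at 22 °C. Eno3 differs mainly through the single 22 °C library at 143 CPM.

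Of 6 tested skeletal muscle markers 3 fell, with a list median of -4.78, but 1 fell with DESeq2 and none on FPKM. Without 22 °C replicate 2 none of them fell, and the median was -0.22. Among falls without overlap in genes whose mean reached 5 CPM after 24 h or at 22 °C, the largest was that of Dkk2, a Wnt antagonist. It had 0.945, 2.23, 2.06, 1.501 and 1.02 CPM after 24 h, against 11.9, 15.9, 3.83, 6.19 and 3.09 CPM at 22 °C (log2 fold change -2.39 ± 0.54, adjusted p = 0.0059). Sfrp2, a second Wnt antagonist of fibroblasts, had 2.70, 2.56, 10.3, 9.22 and 12.2 CPM after 24 h, against 36.8, 31.8, 28.1, 43.1 and 15.5 CPM at 22 °C (log2 fold change -2.07 ± 0.53, adjusted p = 0.012). In both genes the groups did not overlap, but the controls spread over several fold. Of 18 Wnt regulators 3 fell and 1 rose (median -0.54). The falls numbered 5 without 24 h replicate 3 or with upper-quartile factors, 8 or 10 on FPKM, and 2 when any 1 of 24 h replicates 1, 2 and 5 or of 22 °C replicates 1, 2 and 3 was left out. The matrix glycoprotein Tnc had 2.80, 4.89, 3.53, 4.05 and 5.54 CPM after 24 h, against 12.7, 17.4, 10.3, 8.03 and 19.6 CPM at 22 °C (log2 fold change -1.71 ± 0.25, adjusted p = 0.0006), without overlap. Col6a6 (-1.87 ± 0.37), the annexin Anxa8 (-1.73 ± 0.30) and the cadherin Cdh23 (-1.53 ± 0.28) were also among the 12 largest of these. Sult1e1, the estrogen sulfotransferase, had 1.72, 2.58, 3.53, 4.42 and 4.58 CPM after 24 h, against 27.5, 21.4, 6.94, 12.2 and 6.62 CPM at 22 °C (log2 fold change -2.14 ± 0.60, adjusted p = 0.018). Its call was lost without 22 °C replicate 1 (adjusted p = 0.0575). Eno3, the muscle enolase, had 11.6, 9.74, 11.4, 11.2 and 7.96 CPM after 24 h, against 12.5, 143, 11.9, 13.1 and 13.4 CPM at 22 °C (log2 fold change -1.90 ± 0.60, adjusted p = 0.033). Its level followed the skeletal muscle markers of 22 °C replicate 2. The call did not hold without 24 h replicate 1, 2, 4 or 5 or 22 °C replicate 2 (adjusted p = 0.0581 to 0.181) and also with 10 libraries of the 2 groups, with all 30 libraries in the fit, on log2(FPKM + 0.1), on log2(FPKM + 1) or with the replicate number as a block.

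Matrix genes fell in 9 of 30 cases and none rose (median -0.36). Fibrillin, Fbn1, had 21.1, 29.6, 62.1, 49.8 and 42.1 CPM after 24 h, against 163, 102, 108, 125 and 45.6 CPM at 22 °C (log2 fold change -1.41 ± 0.32, adjusted p = 0.0061), overlapping in 1 control. Collagen Col1a1 had 172, 296, 237, 298 and 301 CPM after 24 h, against 719, 571, 562, 384 and 392 CPM at 22 °C (log2 fold change -1.01 ± 0.22, adjusted p = 0.0052). Col3a1 had 857, 1502, 777, 1323 and 1344 CPM after 24 h, against 2779, 2452, 2211, 1528 and 1705 CPM at 22 °C (log2 fold change -0.88 ± 0.22, adjusted p = 0.011). Both collagens separated the groups, although 22 °C replicates 4 and 5 lay closest to the cold libraries. By loss in CPM these collagens, Col1a2 (-0.85 ± 0.21), the scaffold protein Ahnak (-1.02 ± 0.19), the metalloreductase Steap4 (-1.09 ± 0.18) and the imprinted Nnat (-1.01 ± 0.28) were the largest falls, but Nnat was not called with all 30 libraries in the fit. Of 27 genes of TGF-beta and BMP signalling 5 fell and 1 rose (median -0.36), and 3 fell without 24 h replicate 1, 4 or 5 or 22 °C replicate 1, 2 or 3. On FPKM 9 or 10 fell. Of 18 genes of vascular growth 5 fell and 1, Vegfa, rose (median -0.25). Esm1, a marker of growing vessel tips, had 0.0337, 0.299, 0.214, 0.134 and 0.414 CPM after 24 h, against 2.21, 1.66, 2.17, 0.932 and 1.51 CPM at 22 °C (log2 fold change -2.93 ± 0.44, adjusted p = 0.00069), without overlap. The angiopoietin receptors Tek (-0.57 ± 0.14) and Tie1 (-0.57 ± 0.13) fell. Of 23 proliferation genes 5 fell and 1 rose (median -0.38), and 3 fell without 24 h replicate 1, 2, 3 or 5 or 22 °C replicate 1 or 2.

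Markers of stromal cells fell in part, beside 10.1% of all tested genes, and of the sums given here only the mural one separated the groups. Summed over 10 mural cell markers, the level was 559, 697, 759, 706 and 830.4 CPM after 24 h, against 1015, 1079, 1000.1, 857 and 1034 CPM at 22 °C. The groups did not overlap, and 3 of the 10 markers fell, Rgs5 (-0.71 ± 0.17) and Mcam (-0.70 ± 0.19) among them. The median log2 fold change of the 10 was only -0.10, 3 of them had a positive one, and 1 separated the groups by itself. The 17 progenitor and fibroblast markers summed to 6452 to 8806 CPM after 24 h and 8525 to 9802 CPM at 22 °C, with 3 falls. Of these Cd34 had 36.8, 54.7, 80.8, 64.9 and 70.3 CPM after 24 h, against 195, 153, 122, 236 and 93.1 CPM at 22 °C (log2 fold change -1.38 ± 0.27, adjusted p = 0.0028), without overlap. The count of falls was 7 on FPKM, 5 without 22 °C replicate 5 and 6 without 24 h replicate 3. The 15 endothelial markers summed to 735 to 941 CPM after 24 h and 705 to 1267 CPM at 22 °C, with 7 falls, among them Cdh5 (-0.65 ± 0.16) and Erg (-0.76 ± 0.17), or 4 when 24 h replicate 1 or 5 was left out, or 22 °C replicate 1, 2 or 3. The 16 macrophage markers summed to 566 to 932 CPM after 24 h and 515 to 1338 CPM at 22 °C, with 1 fall, Cd14 (-0.65 ± 0.22), whose call was lost without 24 h replicate 1, 2, 4 or 5 or 22 °C replicate 2 or 4 (adjusted p = 0.0679 to 0.143) and also with all 30 libraries in the fit, with no filter or with the replicate number as a block. No marker of these 4 lists was at 0. With the mean of the progenitor and fibroblast, endothelial and macrophage markers as the stromal covariate, 95 genes rose and 64 fell. Mural cell markers were not part of this covariate. Under it Cd200 stood at -1.31, Aplnr at -2.09, Inhbb at -1.58, Meox2 at -1.17 and Tnc at -1.87, and all 5 were still called, whereas Col1a1 at -0.47, Col1a2 at -0.27, Dkk2 at -0.56, Sfrp2 at -0.71 and Sult1e1 at -0.11 were not. No gene list had more than 4 rises or 2 falls under it. The progenitor and fibroblast, endothelial and macrophage lists that make up the covariate had median log2 fold changes of -0.49, -0.25 and -0.45. They also hold Dcn and Lum of the matrix list. The covariate thus overlaps in part with the comparison itself, and a call kept or lost under it cannot tell stromal share and cold response apart. How much of each fall comes with the stromal markers was not tested.

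**Figure D4:**
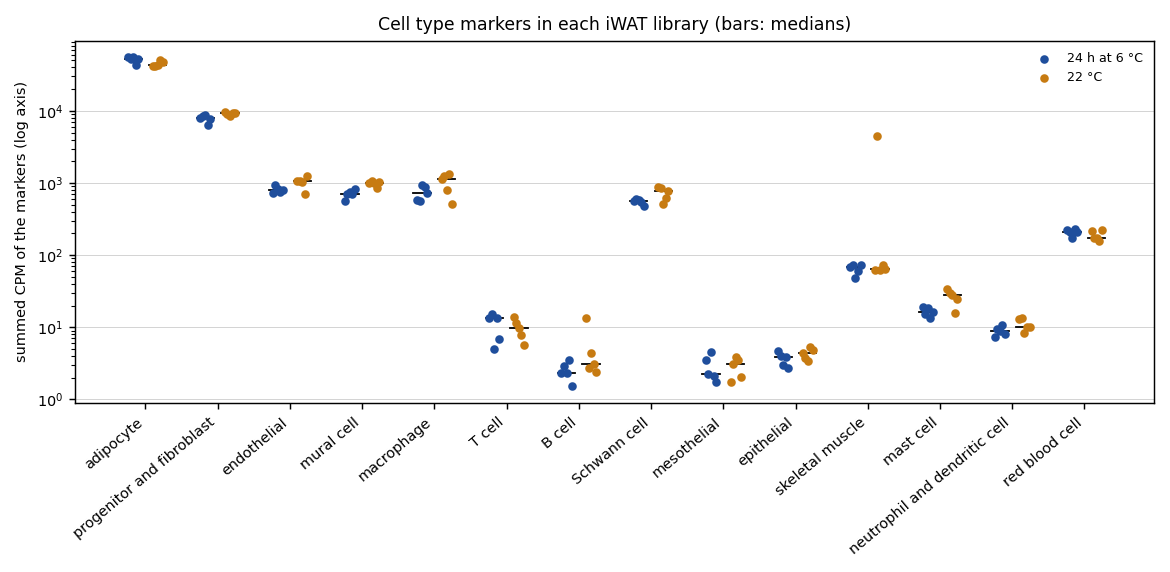
Summed CPM (log axis) of each cell type's markers in the 5 iWAT libraries after 24 h at 6 °C (left of each pair) and the 5 at 22 °C (right), with bars at the medians. The mural cell sums separate, at 559 to 830 CPM after 24 h and 857 to 1079 CPM at 22 °C, and 1 library at 22 °C stands out in skeletal muscle at 4557 CPM.

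Summed markers of other cells that a fat pad can hold overlapped between the groups. The 8 listed B cell markers in the table summed to 1.53 to 3.57 CPM after 24 h and 2.41 to 13.6 CPM at 22 °C, and T cell markers to 5.02 to 15.1 CPM after 24 h and 5.602 to 13.7 CPM at 22 °C. All 7 tested B cell markers had a negative log2 fold change (median -1.07), and none was called. Schwann cell markers summed to 487 to 598 CPM after 24 h (median 557) and 517 to 892 CPM at 22 °C (median 785). Of 10 tested 1 fell, and their median log2 fold change was -0.29. Mast cell markers summed to 13.4 to 18.9 CPM after 24 h and 15.7 to 34.1 CPM at 22 °C. Of 6 tested mast cell markers (median log2 fold change -0.88) 2 fell, and Hdc, which makes histamine, rose (log2 fold change 1.13 ± 0.23, adjusted p = 0.0038). The fallers were the protease Mcpt4, whose call was lost without 24 h replicate 2 or 4 or 22 °C replicate 1 or 2 (adjusted p = 0.0534 to 0.065), and the receptor Kit, whose call was lost without 24 h replicate 2, 4 or 5 or 22 °C replicate 1, 3 or 5 (adjusted p = 0.0578 to 0.0815). The 15 interferon-stimulated genes held no call in either direction, and 4 of them fell without 24 h replicate 4, whose summed level of 766 CPM was the highest of the cold group, against 325 CPM in the lowest. Mesothelial and epithelial markers summed to at most 4.73 CPM after 24 h and 5.26 CPM at 22 °C, and Krt5, Krt14 and Krt1 of the epithelium and Muc16 of the mesothelium were at 0 in all 10 libraries. Genes of creatine and calcium cycling, named for heat production without Ucp1, had 3 rises and 2 falls of 7, with 1 fall without 22 °C replicate 2 and 4 without 22 °C replicate 3. With the muscle covariate or on FPKM 1 fell. The list's median was 0.16, or -0.011 and -0.0066 on FPKM, and its lowest log2 fold change was -5.29. Ckb, the creatine kinase, had 39.5, 33.6, 28.6, 26.6 and 41.7 CPM after 24 h, against 20.6, 16.0, 13.6, 19.5 and 18.6 CPM at 22 °C (log2 fold change 0.94 ± 0.18, adjusted p = 0.0026). The calcium pump Atp2a2 (0.77 ± 0.17) and the phosphatase Alpl (1.26 ± 0.31) rose too.

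Little difference was resolved between 24 h and 6 h in the cold. Between them 1 gene passed by edgeR (0.00731% of those tested), while 1351 had an unadjusted p under 0.05 and DESeq2 called 122. The edgeR count became 13, 6 or 2 when 6 h replicate 4, 24 h replicate 1 or 6 h replicate 5 was left out, in that order, and 0 when 24 h replicate 4 or 5 was, or 6 h replicate 2 or 3. Against the same 22 °C libraries, which both comparisons share, 3145 genes were called at 24 h and 3148 at 6 h. The gene that passed, named after its value was seen, was Wdr6, a partner of the tRNA methylase of the wobble base, with 31.8 ± 1.72 CPM at 22 °C, 30.9 ± 3.93 CPM at 6 h and 19.1 ± 2.01 CPM at 24 h (SD, n = 5 each). Its log2 fold change of 24 h over 6 h was -0.69 ± 0.098 (adjusted p = 0.031, edgeR). Dio2 had log2 fold changes over 22 °C of 3.37 ± 0.78 at 24 h and 3.76 ± 0.80 at 6 h, Ppargc1a had 2.74 ± 0.43 at 24 h and 2.52 ± 0.42 at 6 h, and Fabp3 had 5.09 ± 1.11 at 24 h and 3.06 ± 1.01 at 6 h. Irf4 had 3.25 ± 0.55 at 24 h and 0.68 ± 0.51 at 6 h (adjusted p = 0.34 at 6 h). Fndc5 had 1.85 ± 0.34 at 24 h and -0.038 ± 0.34 at 6 h (adjusted p = 0.94 at 6 h), and Zbtb16 had 1.28 ± 0.31 at 24 h and 0.24 ± 0.31 at 6 h (adjusted p = 0.58 at 6 h). None of these 6 genes passed the test between 24 h and 6 h.

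The response of iWAT was set against that of BAT of the same cold exposure in a fit of all 30 libraries, whose scaling factors also set the CPM given here. Of 14089 genes 1100 differed in their response (7.81%), 683 with a higher and 417 with a lower fold change in iWAT. The count was 703 without 22 °C replicate 1 of iWAT, and the split was 519 and 546 with upper-quartile factors and 371 and 1076 or 385 and 1571 on FPKM. Ucp1 averaged 3007 ± 744 CPM after 24 h and 270.5 ± 298 CPM at 22 °C in iWAT, and 14393 ± 1083 CPM after 24 h and 11859.6 ± 1309.6 CPM at 22 °C in BAT (SD, n = 5 each). Its response was 3.20 ± 0.92 log2 units higher in iWAT (adjusted p = 0.031, edgeR), with BAT at 0.28 ± 0.64. Dio2 averaged 206 ± 40.4 CPM after 24 h and 19.8 ± 22.3 CPM at 22 °C in iWAT, and 772 ± 117 CPM after 24 h and 504 ± 107 CPM at 22 °C in BAT, a difference in response of 2.77 ± 0.80 (adjusted p = 0.031). The iWAT level of Ucp1 after 24 h was below that of BAT in both of its groups.

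Other genes with a higher response in iWAT were Sgk2 (difference 4.58 ± 1.03, adjusted p = 0.0072), Fabp3 (3.71 ± 1.06), Irf4 (3.37 ± 0.73), Nr4a3 (3.27 ± 0.60) and Ppargc1b (2.19 ± 0.29, adjusted p = 7.9e-05). Ppargc1b stood at 0.019 ± 0.20 in BAT. Genes of fuel use followed: Gk (2.41), Cpt1b (2.09), Pdk4 (1.88), Acot2 (1.46) and Acly (1.79), the last with 0.53 ± 0.43 in iWAT and -1.23 ± 0.40 in BAT. Ckb went the other way (-2.91 ± 0.28, adjusted p = 3.4e-07), with 28.8 ± 5.70 CPM after 24 h and 14.8 ± 2.45 CPM at 22 °C in iWAT, and 456 ± 115 CPM after 24 h and 31.3 ± 7.88 CPM at 22 °C in BAT. It rose in both depots, by 3.87 ± 0.21 in BAT. Of genes that fell in iWAT, the response was lower there than in BAT for Il33 (difference -2.14), Tnc (-2.002), Dkk2 (-2.37) and Cd34 (-1.27). Their log2 fold changes in iWAT were -2.34, -1.71, -2.39 and -1.38, in that order. Responses that differed by less than the test could resolve included Ppargc1a (2.74 ± 0.43 in iWAT and 2.09 ± 0.37 in BAT, difference 0.67 ± 0.51), Cdkn1a (1.87 ± 0.20 and 1.81 ± 0.21, difference 0.076 ± 0.29), Bmal1 (1.37 ± 0.31 and 1.35 ± 0.30, difference 0.027 ± 0.38) and Aplnr (-1.99 ± 0.20 and -1.56 ± 0.22, difference -0.41 ± 0.31).

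**Figure D5:**
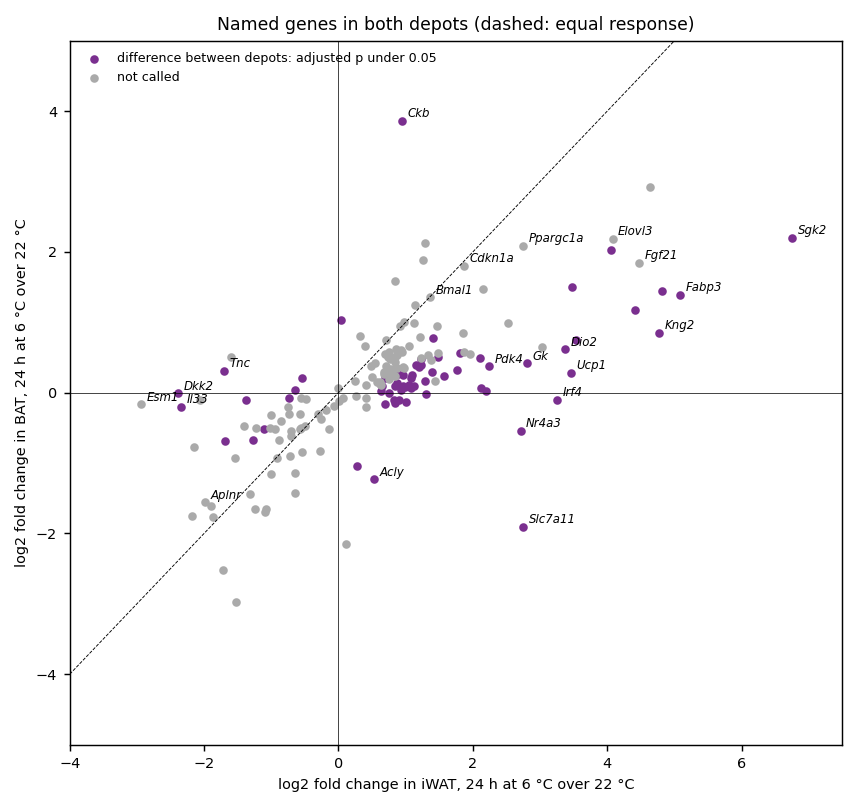
Log2 fold change after 24 h at 6 °C over 22 °C of the genes named in the text in iWAT (x axis) and BAT (y axis), with genes whose difference passed the test in purple. Sgk2, Fabp3, Ucp1 and Irf4 lie right of the dashed line of equal response, Ckb lies above it, and Cdkn1a, Bmal1 and Aplnr lie near it.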

How the data were processed

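Polyadenylated RNA of fat tissue was sequenced with a NEBNext Ultra II library kit, per the labels' protocols, in 6 groups of 5 libraries (iWAT and BAT at 22 °C and after 6 h and 24 h at 6 °C). The submitters' processing notes name HISAT2, HTSeq and the GRCm39 build, with no versions. The deposited read counts per gene are whole numbers and were tested as deposited. The deposited FPKM values are the same counts, divided by gene length and by each library's total, and served for levels set against length and for alternatives. Strandedness of counting is not given in the sources used here, so overlapping genes on opposite strands cannot be told apart.

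All libraries of the 2 iWAT groups entered, and no value chose them. The gene lists, and the choice of this comparison, were made with earlier results of these data known. The stromal and muscle covariates and the list of aminoacyl-tRNA synthetases were chosen after seeing the data. Of 21652 genes in the tables, those passing filterByExpr (minimum count 10) were tested with edgeR 4.0.16 in R 4.3.3: TMM factors, quasi-likelihood F test, the 15 iWAT libraries sharing 1 dispersion fit, and Benjamini-Hochberg adjustment over all tested genes at 0.05. The error of a log2 fold change is its standard error, the size of the fold change divided by the square root of F. CPM use TMM-scaled library sizes. The difference between iWAT and BAT was an interaction contrast over 30 libraries. The test was also run on simulated counts with 200 changed genes, far fewer than the 3145 called here, and no conclusion is drawn from that run.

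Genes were named by rule: the 12 largest rises and falls, and the 8 lowest p in each direction, among called genes with a mean of at least 5 CPM in either group and no overlap; the 6 largest gains and losses in mean CPM; up to 6 called members of each list; and a fixed set of genes. Other list members are named where a group is described. Predicted genes were left out of the naming, and a few genes that the rule would name are not reported here.

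Alternatives were DESeq2 1.42.0, other size factors and filters, limma 3.58.1 on log2(deposited FPKM + 0.1) or log2(deposited FPKM + 1), other sets of libraries in the fit, the replicate number as a block, each library left out, and the covariates. Counts of any 2 libraries of the 24 h group, or of the 22 °C group, differed by far more than sampling noise (chi-square per degree of freedom 38.3 to 129), so all libraries were kept as separate samples. Promoter letters came from RefSeq (GRCm38.p6), matched by NCBI gene identifier.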

Additional observations from a re-analysis of the deposited data

Results flagged for a closer look

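In 384 groups of 5 iWAT libraries, for the 177 genes named above and the summed marker lists, 22 single libraries lay far from the other 4 of their group: on the log2 scale their gap to the nearest one exceeded 0.71 of the group's whole range. Chance alone marks about 5% of such groups. After 24 h, replicate 1 was highest for Esrra (150.4 CPM, others 109 to 118 CPM) and was lowest for Col1a2 (333 CPM, others 480.4 to 541 CPM). After 24 h, replicate 2 was lowest for Ppara (28.4 CPM, others 48.1 to 56.1 CPM). After 24 h, replicate 3 was lowest for Cd200 (15.5 CPM, others 19.5 to 20.5 CPM), Pgk1 (425 CPM, others 489 to 516 CPM) and Psmc4 (74.3 CPM, others 93.7 to 100.4 CPM). After 24 h, replicate 4 was lowest for the summed adipocyte markers (43274 CPM, others 51728 to 55509 CPM). After 24 h, replicate 5 was highest for Phgdh (173 CPM, others 116 to 125 CPM). Replicate 2 at 22 °C was highest for Eno3 (143 CPM, others 11.9 to 13.4 CPM), Slc25a12 (17.9 CPM, others 5.24 to 6.91 CPM) and the summed skeletal muscle markers (4557 CPM, others 62.6 to 72.2 CPM). Replicate 3 at 22 °C was highest for Ppargc1b (10.1 CPM, others 4.21 to 5.19 CPM). Replicate 4 at 22 °C was highest for Anxa8 (64.0 CPM, others 24.6 to 31.7 CPM), Mdh2 (511 CPM, others 288 to 331 CPM), Psmb5 (95.6 CPM, others 54.8 to 63.4 CPM), Slc25a39 (173 CPM, others 94.0 to 104 CPM), Timm23 (116 CPM, others 79.9 to 88.2 CPM) and Txn2 (169 CPM, others 96.7 to 108 CPM) and was lowest for Ahnak (813 CPM, others 1215 to 1320.0 CPM). Replicate 5 at 22 °C was highest for Cdh23 (9.72 CPM, others 5.13 to 6.04 CPM) and Sgk1 (71.1 CPM, others 39.9 to 46.0 CPM) and was lowest for Slc25a24 (15.9 CPM, others 22.9 to 25.7 CPM).

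The 24 h response differed between iWAT and BAT, by edgeR's test of the difference at an adjusted p under 0.05, for 65 of the 177 named genes, beside 7.81% of all genes tested. The named genes were chosen mostly for their change in iWAT. Among genes of heat production and its regulators, the iWAT minus BAT difference in log2 fold change was positive for Fabp3 (3.71), Irf4 (3.37), Ucp1 (3.20), Perm1 (2.81), Dio2 (2.77), Gk (2.41), Ppargc1b (2.19), Cpt1b (2.09), Letmd1 (1.35) and Kcnk3 (1.26). For cyclic AMP signalling it was positive for Nr4a3 (3.27) and Pde4d (1.34). For fuel use and the tricarboxylic acid cycle it was positive for Pdk4 (1.88), Acly (1.79), Acot2 (1.46), Fasn (1.35), Hsd17b7 (1.12), Etfdh (1.06), Suclg1 (1.02), Mpc1 (1.00), Mpc2 (0.96), Agpat2 (0.95), Sucla2 (0.91), Hadha (0.88), Pgk1 (0.86), Idh3a (0.85), Ogdh (0.77), Cs (0.77) and Pgam1 (0.77). For mitochondria it was positive for Slc25a34 (2.06), Hpdl (1.99), Slc25a20 (1.14), Cycs (0.99), Hspa9 (0.93), Slc25a51 (0.86), Uqcrfs1 (0.76), Timm23 (0.64) and Prdx3 (0.62). For stress and protein synthesis it was positive for Slc7a11 (4.66), Mthfd2 (1.63), Sesn2 (1.15), Dnajb9 (1.02), Hspa8 (0.89), Asns (0.86), Atf5 (0.76), Gars1 (0.72), Rbm3 (0.57) and Farsb (0.50). Other positive differences were those of Sgk2 (4.58), Kng2 (3.93), Cend1 (3.40), Lgr6 (3.24) and Shb (0.65). The difference was negative for Ckb (-2.91), Dkk2 (-2.37), Il33 (-2.14), Tnc (-2.002), Cd34 (-1.27), Samd5 (-0.98), Cpt1a (-0.97), Slc25a24 (-0.74), Cdh5 (-0.67), Cmtm6 (-0.64), Cd200 (-0.58) and Meox2 (-0.58).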

How the results depend on the processing

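The 3145 genes called at 24 h against 22 °C became 2192 to 4163 in 11 of the 12 alternatives that kept all 10 libraries, and 159 with the stromal markers as a covariate. Without 1 library the count was 2053 (22 °C replicate 1) to 3646 (22 °C replicate 4). The single gene called between 24 h and 6 h became 122 with DESeq2, 5 on log2(FPKM + 1), and 0 on log2(FPKM + 0.1), with the 10 libraries of these groups alone or with the replicate block, and 0 to 13 without 1 library. The 1100 genes whose response differed between iWAT and BAT became 1956 on log2(FPKM + 1) and 703 to 1641 without 1 library, both ends from iWAT at 22 °C. The cause of these shifts was not tested.

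Of the 177 named genes the stromal covariate left 58 on the same side of the threshold and 116 with the same sign but no longer called. The other alternatives with all libraries ended the call of 0 to 9 of them, and leaving out 1 library that of 2 to 13. No called gene turned its direction. Some genes that were not called did. With the stromal covariate Acly went from 0.53 to -0.27, Fasn from 0.28 to -0.24 and Ldha from 0.24 to -0.063. The other genes that changed sign were nearer to 0. On log2(FPKM + 0.1) and log2(FPKM + 1), Cirbp had -0.15 and -0.14, Cpt1a -0.12 and -0.10, and Lipe -0.097 on both. With upper-quartile factors Cirbp had -0.057, Cpt1a -0.026 and Lipe -0.00027. The muscle covariate gave Cirbp -0.011 and Prdm16 0.038. Prdm16 also had 0.0046 with DESeq2 and with RLE factors, 0.010 with all 30 libraries, 0.0022 with the 1 CPM filter, 0.015 with no filter and 0.027 with the replicate block. Without 1 library Prdm16 ranged from -0.0902 to 0.0735, Cirbp from -0.0823 to 0.0798, Cpt1a from -0.096 to 0.13 and Nr4a1 from -0.13 to 0.61.

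The labels give the groups the same replicate numbers, but deviations of same-numbered 24 h and 22 °C libraries correlated at -0.18, -0.082, -0.014, -0.048 and 0.053 over genes, so the numbers were not taken as a pairing. With the replicate block 2959 genes were called at 24 h and 1241 differed between tissues, and Nr4a1 had -0.079. At low levels, such as those of Fgf21 and Gdf15 at 22 °C and of Slc7a11, a fold change rests on few counts.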
